A study of Mus musculus with 2 samples.

Results

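Foxp3+ T cells, the cells that carry the transcription factor of regulatory T cells, were taken out of kidney leukocytes by their own transcripts. A cell was a member when it had at least 1 unique molecular identifier (UMI, 1 captured RNA molecule) of Cd3d, Cd3e or Cd3g, at least 1 UMI of Foxp3, no UMI of Cd8a or Cd8b1, and fewer than 10 C1qa UMIs per 10000. By this rule 85 of the 6601 cells kept were members, 63 in hashed sample 1 and 22 in hashed sample 2. They were set against 394 Foxp3-negative CD4 T cells (278 and 116), which had a Cd3 and a Cd4 UMI and no UMI of Foxp3, Cd8a or Cd8b1. Both classes were chosen by the measured UMIs of Foxp3, Cd3d, Cd3e, Cd3g, Cd4, Cd8a, Cd8b1 and C1qa, so levels of these genes are descriptions.

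The cells are CD45-sorted leukocytes from kidneys of B6 mice labelled AAN CKD (aristolochic acid nephropathy, a toxic chronic kidney disease) at week 2, profiled with the 3' Chromium chemistry after Liberase digestion. All classes compared share this genotype, treatment and time, and no untreated kidney is among the samples used here. The 2 hashed samples, told apart by antibody-borne barcodes, passed through 1 capture library and share 0 barcodes, and whether they come from separate animals is not stated in the labels, which name 1 mouse. The protocol names human kidneys and the cell type field mesenchymal stem cells, whereas all gene identifiers are mouse. The title names W1 and W2, while the time field and the names of both hashed samples in the deposited run settings give week 2 only.

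Regulatory T cells restrain other lymphocytes. Foxp3 fixes their program, the high-affinity interleukin 2 receptor lets them take up a growth factor that they scarcely make themselves, and CTLA-4 strips costimulatory ligands from antigen-presenting cells. In non-lymphoid tissues, regulatory T cells with the alarmin receptor ST2 and the growth factor amphiregulin are known for a part in repair, and in mouse kidney injury they are known to limit damage.

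The label was checked on markers that the rule did not use, since Cd3e, a subunit of the T cell receptor complex, and Foxp3 were part of it. Foxp3, on chromosome X at 7573644 to 7595245, plus strand (GRCm38), read 352 and 347 CPM (UMIs scaled to a common total) in hashed samples 1 and 2. All paired values are in this order of hashed samples. Of the other regulatory T cell markers, Ikzf2 or Ctla4 had a UMI in 77 of the 85 members (90.6%, 95% interval 82.3 to 95.85), against 40.9% of the Foxp3-negative CD4 T cells, and both had one in 60 members. The median depth was 4527 and 5199 UMIs per Foxp3+ T cell, against 5226.5 and 3754 UMIs per Foxp3-negative CD4 T cell, so that the deeper class differed between the hashed samples. Summed UMIs were 360547 and 152743 in Foxp3+ T cells, against 1949873 and 661682 in Foxp3-negative CD4 T cells. Mitochondrial UMIs made up a median of 2.08% and 1.98% of each member's total.

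Foxp3+ T cells were a small share of the sorted cells and a larger one of the CD4 lineage. They made up 2.02% (95% interval 1.56 to 2.58, 63 of 3115) of the cells kept in hashed sample 1, while hashed sample 2 held 0.631% (95% interval 0.396 to 0.954, 22 of 3486). Of all T cells they were 5.98% (95% interval 4.62 to 7.58, 63 of 1054) in hashed sample 1, and hashed sample 2 had 3.89% (95% interval 2.46 to 5.84, 22 of 565). In the share of all cells kept the intervals of the hashed samples did not overlap. Of the CD4-lineage T cells (members and Foxp3-negative CD4 T cells together) they were 18.5% (95% interval 14.5 to 23, 63 of 341) in hashed sample 1, and hashed sample 2 had 15.9% (95% interval 10.3 to 23.1, 22 of 138). Here and among T cells the intervals overlapped. The CD4-lineage share rests on unequal gates. A Cd4 UMI was required of the Foxp3-negative cells only, while 32 of 63 and 12 of 22 members had one. T cells of any kind were 33.8% and 16.2% of the cells kept. All shares of Foxp3+ T cells are of cells with a captured Foxp3 UMI. A cell that made Foxp3 RNA without a captured UMI is not in them and can count as Foxp3-negative. All intervals in the text are exact 95% intervals that cover counting error only and not differences between animals, and no test was possible with 1 capture library.

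**Figure D1:**
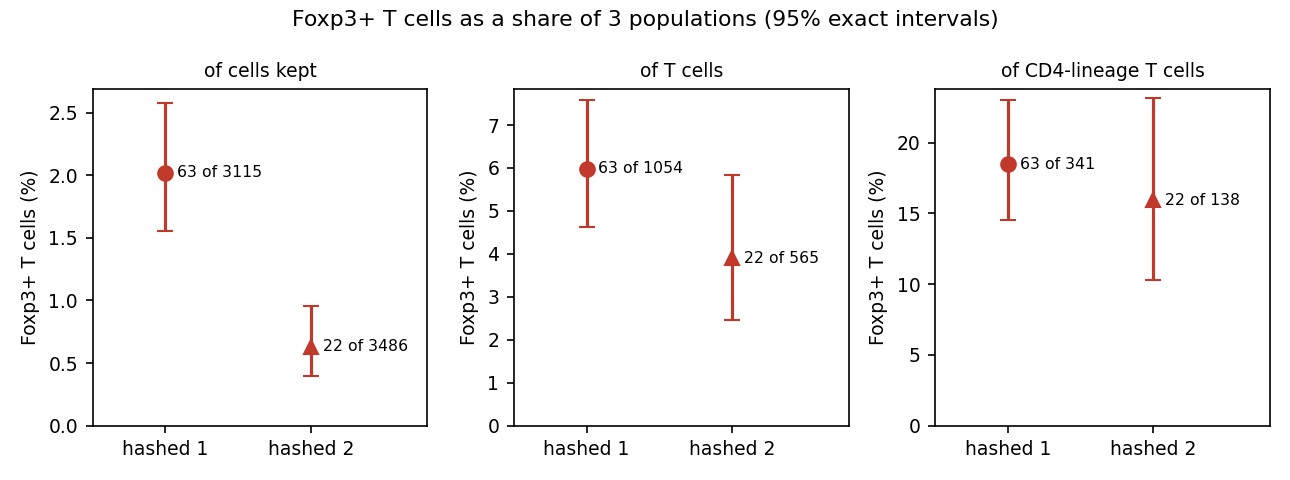
Foxp3+ T cells as a percent of all cells kept, of T cells and of CD4-lineage T cells, in hashed samples 1 and 2, with exact 95% binomial intervals. The intervals do not overlap for the share of all cells (2.02% and 0.631%) and overlap for the other denominators. In the CD4-lineage denominator a Cd4 UMI was required of the Foxp3-negative cells only.

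The edge of the rule lay close to many members. Of the 85, 37 had a single Foxp3 UMI, 22 had 2, 14 had 3, 6 had 4, 3 had 5 and 3 had 6. A Cd4 UMI was seen in 44 of the 85 members (32 and 12), which was not required of them but was required of the Foxp3-negative CD4 T cells. In all 111 cells kept had a Foxp3 UMI, and 26 of them were left outside: 11 without a Cd3 UMI, 8 with a Cd8 UMI and 7 at or over the C1qa limit. Just inside the rule, the members with 1 Foxp3 UMI had 464.9 CPM of Ctla4 and 533 CPM of Ikzf2 when pooled. Just outside it, the 8 cells with a Cd8 UMI had 754 CPM of Ctla4 and 810.5 CPM of Ikzf2, and the 7 cells over the C1qa limit had 524 and 469 CPM of the same genes. The 11 cells without a Cd3 UMI had 27.2 CPM of Ctla4 and 68.1 CPM of Ikzf2. Macrophage-gated cells (3416 cells, 1363 and 2053, with at least 10 C1qa UMIs per 10000 and no Cd3 UMI), which should lack the gene, had a Foxp3 UMI in 0.2935% and 0.0974% of cells, at medians of 6276 and 6893 UMIs.

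A gene counted as measured when, within each hashed sample, either class reached 50 CPM. Among 2891 such genes, 100 were counted as higher in Foxp3+ T cells, which is 3.46% of those measured, and 57 as lower, which is 1.97%, together 5.43%. The call needed a difference of 1.5-fold or more with the same sign in hashed samples 1 and 2, on the log2 scale with 10 CPM added to both classes. The counts include Foxp3 and Cd4, which the rule set. A gene at 50 CPM in 1 class only was measured through the class where it was high, so the limit favoured its call. In 76 genes counted as higher (2.63%) and 32 counted as lower (1.11%), the counting interval of the ratio also excluded 1 in both hashed samples. Another 38 genes passed 1.5-fold in opposite directions in the hashed samples. The median difference over all measured genes was 0.01 and 0.00 log2, and across these genes, which are not independent replicates, the differences of the hashed samples had a Pearson r of 0.4. Where TMM scaling was used instead, 71 genes counted as higher and 81 as lower, with medians over all genes of -0.10 and -0.07 log2.

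**Figure D2:**
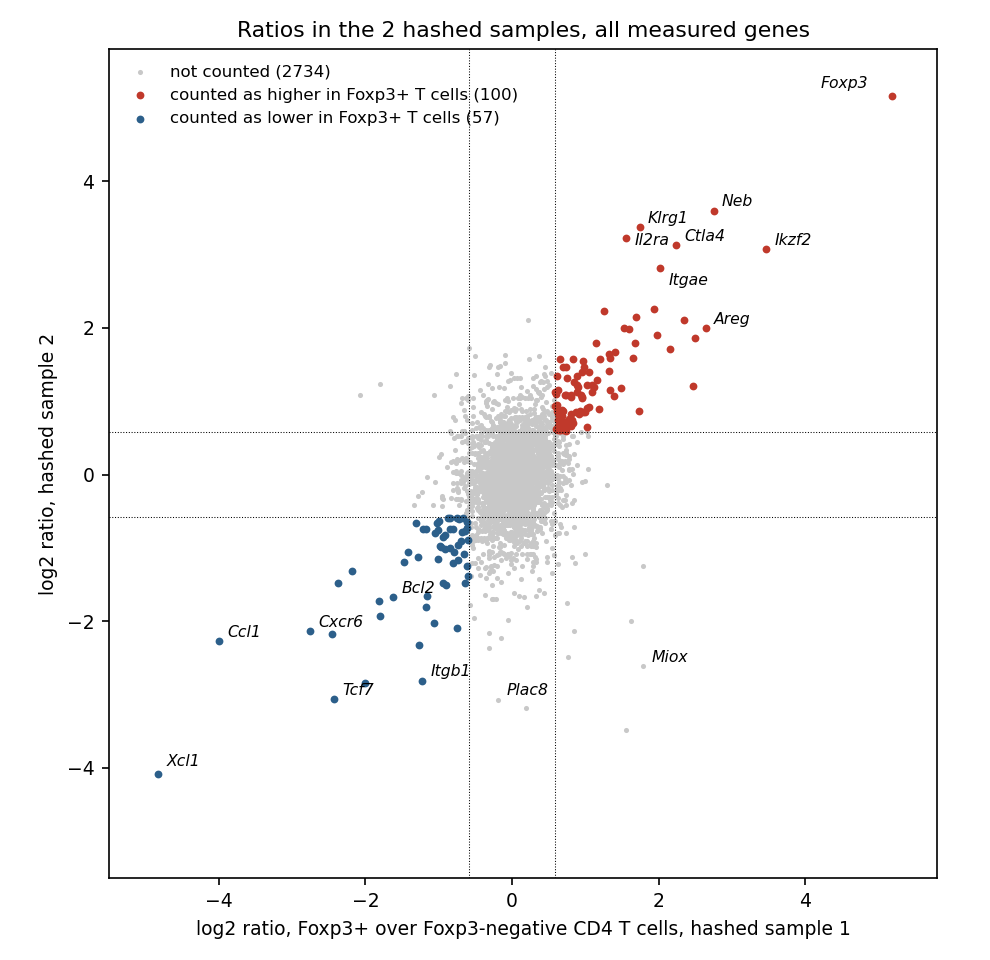
Log2 ratio of Foxp3+ T cells over Foxp3-negative CD4 T cells for each of 2891 measured genes, in hashed sample 1 (horizontal) and hashed sample 2 (vertical), with dotted lines at 1.5-fold. The 100 genes counted as higher lie beyond the lines at upper right and the 57 counted as lower at lower left, and the remaining 2734 lie between or in opposite corners.

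Genes of regulatory T cell identity had the highest median in both hashed samples among the lists with 6 or more measured members. Of 17 such genes other than Foxp3, 12 were measured, 9 of these were counted as higher against 3.46% of all genes, and 0 as lower. The list median was 1.30 and 1.84 log2, against 0.01 and 0.00 over all genes. Il2ra, Itgae and Tnfrsf9 reached 50 CPM in Foxp3+ T cells only, so the limit admitted them through the class where they are high. At 2-fold 6 of the 12 were counted, without Capg, Tnfrsf18 and Tnfrsf4. Of the other listed genes described here, Tnfrsf1b, Cd2, Icos, Il7r, Ccr2, Ccr9, Foxo1, Hif1a, Gbp7, Ifi209 and Ifi27l2a were not higher at 2-fold, and Id2, Runx3, Bhlhe40, Pdcd1, Tgfbr2 and Pcna were not lower. The members of the identity list, like those of all lists here, were chosen with earlier results of these data known. The lists share genes, so that a gene can be counted in more than 1 of them.

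Ikzf2, which encodes Helios, a zinc finger partner of Foxp3, had the highest mean log2 ratio of the group, 3.27, although Il2ra and Ctla4 had a higher log2 ratio in hashed sample 2. It had 569 and 609 CPM in Foxp3+ T cells, against 42.6 and 63.5 CPM in Foxp3-negative CD4 T cells. This is 13.4-fold (10.3 to 17.45) and 9.59-fold (6.595 to 14.2) higher. CD8 T cells, at 35.5 and 33.3 CPM, and macrophage-gated cells, at 5.01 and 6.78 CPM, lay below both. Ikzf2 lies on chromosome 1 at 69531214 to 69687245, minus strand (GRCm38, from the GENCODE annotation).

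Ctla4, the inhibitory receptor that removes CD80 and CD86 from other cells, read 566 and 648 CPM in Foxp3+ T cells, against 112 and 65 CPM in Foxp3-negative CD4 T cells, 5.04-fold (4.14 to 6.12) and 9.97-fold (6.91 to 14.6) higher. It lies on chromosome 1 at 60887000 to 60915832, plus strand. Il2ra, the alpha chain that gives the interleukin 2 receptor its high affinity, had 83.2 and 196 CPM in Foxp3+ T cells, against 21.5 and 12.1 CPM in Foxp3-negative CD4 T cells, 3.86-fold (2.335 to 6.32) and 16.2-fold (7.28 to 41) higher. Its level in hashed sample 2 was above that in hashed sample 1 in Foxp3+ T cells, and the reverse held in the Foxp3-negative cells. Izumo1r, which encodes folate receptor 4 of regulatory T cells, had 208 and 249 CPM in Foxp3+ T cells, against 57.4 and 48.4 CPM in Foxp3-negative CD4 T cells, and CD8 T cells had 8.36 and 8.95 CPM. Itgae, the CD103 integrin chain that binds E-cadherin on epithelium, had 130.4 and 91.7 CPM in Foxp3+ T cells, against 24.6 and 4.53 CPM in Foxp3-negative CD4 T cells, 5.295-fold (3.465 to 8.09) and 20.2-fold (5.64 to 109.7) higher, with 3 UMIs behind the Foxp3-negative value of hashed sample 2. Capg, an actin-capping protein, had 569 and 668 CPM in Foxp3+ T cells, against 315 and 216 CPM in Foxp3-negative CD4 T cells.

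Nt5e (the adenosine-forming ectoenzyme CD73), Rgs1 (a brake on chemokine receptor signalling) and Socs2 (a cytokine signalling inhibitor) were measured and not counted. Nt5e had 55.5 and 85.1 CPM in Foxp3+ T cells, against 37.95 and 27.2 CPM in Foxp3-negative CD4 T cells, Rgs1 had 563 and 432 against 429 and 408 CPM, and Socs2 had 108 and 124 against 47.7 and 83.1 CPM. For 5 identity genes the level was under the 50 CPM limit in at least 1 hashed sample. Among them Ikzf4, which encodes the Helios relative Eos, had 44.4 and 32.7 CPM in Foxp3+ T cells, against 8.72 and 10.6 CPM in Foxp3-negative CD4 T cells, and Lrrc32, the GARP protein that holds latent TGF-beta on regulatory T cells, had 16.6 and 13.1 against 0 and 1.51 CPM. Nrp1, neuropilin 1, a surface marker of thymus-derived regulatory T cells in mice, had 22.2 and 52.4 against 19.5 and 30.2 CPM.

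**Figure D3:**
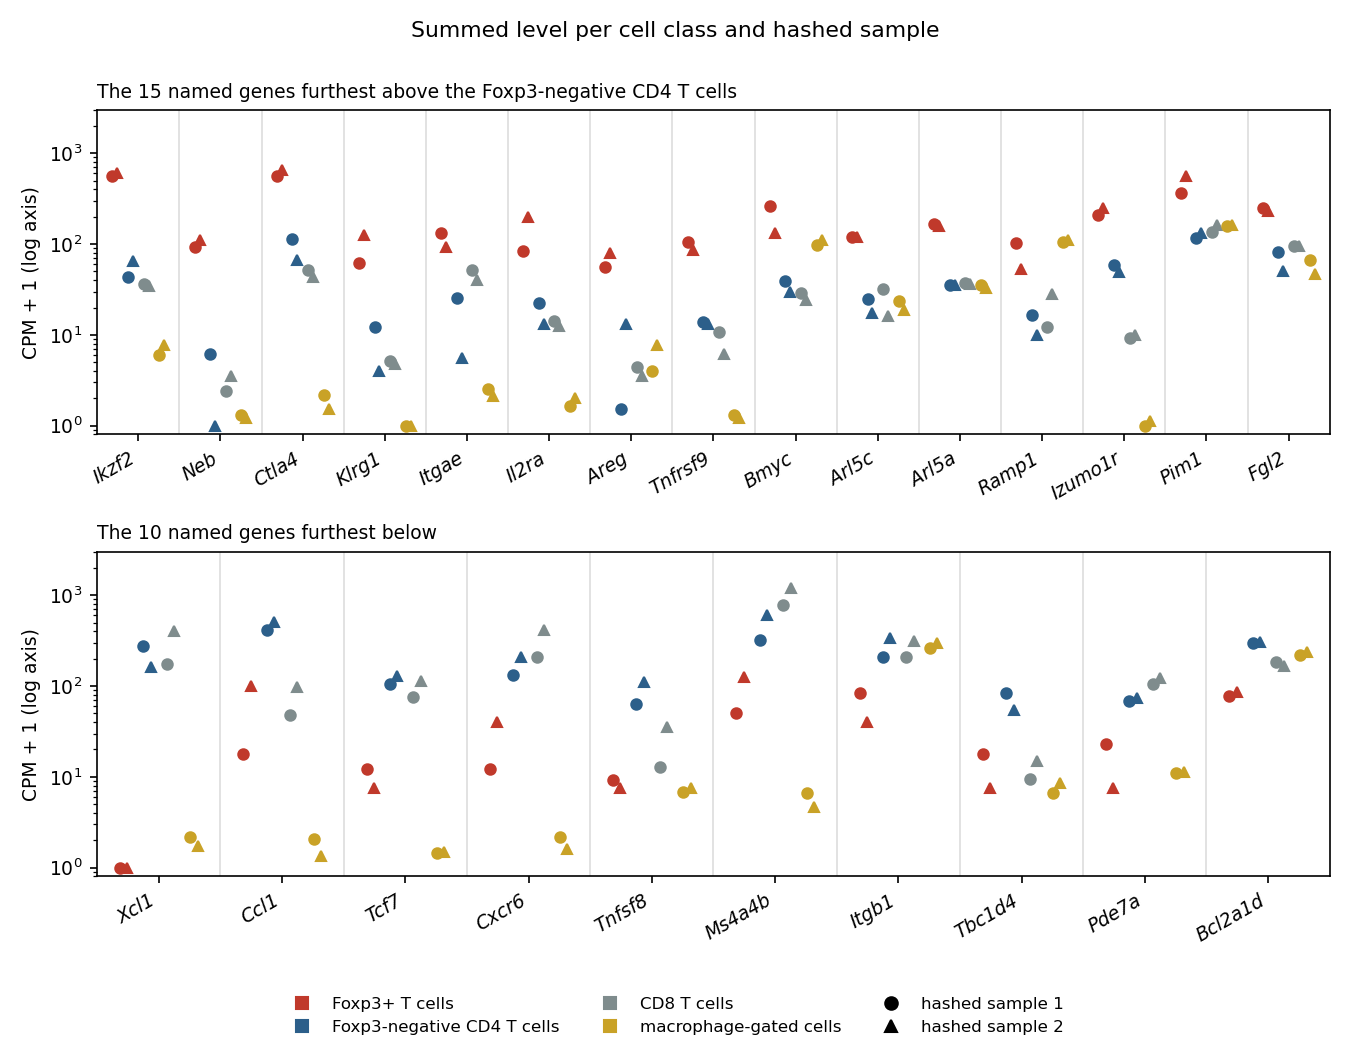
CPM plus 1 (log axis) of the 15 genes with the highest and the 10 with the lowest mean log2 ratio, in Foxp3+ T cells, Foxp3-negative CD4 T cells, CD8 T cells and macrophage-gated cells, with 1 point per hashed sample. Ikzf2 and Ctla4 sit above 500 CPM in Foxp3+ T cells of both hashed samples, and Xcl1 sits at 0 there.

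The remaining genes at the top of the ranking were of mixed function. Neb, which encodes the giant muscle protein nebulin, had 91.5 and 111 CPM in Foxp3+ T cells, against 5.13 and 0 CPM in Foxp3-negative CD4 T cells, but 52.9% of its UMIs in the Foxp3+ cells of hashed sample 2 came from 1 cell. Tnfrsf9, the costimulatory receptor 4-1BB, had 105 and 85.1 CPM in Foxp3+ T cells, against 12.8 and 12.1 CPM in Foxp3-negative CD4 T cells, 8.22-fold (4.835 to 14.2) and 7.04-fold (2.705 to 19.6) higher. Pim1, a survival kinase induced by STAT5, had 366 and 556.5 CPM in Foxp3+ T cells, against 114 and 133 CPM in Foxp3-negative CD4 T cells. Pim1 was thus abundant in all T cells and higher in the members of both hashed samples.

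Fgl2, a secreted fibrinogen-like protein through which regulatory T cells are known to suppress, had 249.6 and 229 CPM in Foxp3+ T cells, against 80.01 and 49.9 CPM in Foxp3-negative CD4 T cells. The small GTPase genes Arl5a and Arl5c both counted as higher, Arl5a at 166 and 157 against 34.9 and 34.8 CPM and Arl5c at 119 and 118 against 23.6 and 16.6 CPM. Bmyc, a Myc family gene, had 263.5 and 131 against 38.5 and 28.7 CPM, and Ramp1, a partner chain of the receptor for calcitonin gene-related peptide, had 103 and 52.4 against 15.4 and 9.07 CPM. Macrophage-gated cells held 96.1 and 111 CPM of Bmyc and 105 and 109 CPM of Ramp1, above the Foxp3-negative CD4 T cells of both hashed samples. For Ramp1 macrophage-gated cells were also above the Foxp3+ T cells, whose value in hashed sample 2 rests on 8 UMIs. In hashed sample 2, 65% of the Bmyc UMIs of the members came from 1 cell. Of the 100 genes counted as higher, 9 were at least as high in macrophage-gated cells as in either T cell class, and with such genes left out, an alternative chosen after seeing the data, 91 and 51 genes remained counted.

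The TNF receptor family, whose members deliver survival and costimulatory signals, had more members higher than lower. Of 10 measured members 5 were counted as higher and 1 as lower, against 3.46% higher and 1.97% lower of all genes, with a median of 0.74 and 0.80 log2. Of the 5, Tnfrsf4, Tnfrsf9 and Tnfrsf18 are also among the higher identity genes. Cd27 and Tnfrsf9 reached 50 CPM in Foxp3+ T cells only and Tnfsf8 in Foxp3-negative CD4 T cells only. The limit thus admitted them through the class where they are high. Tnfrsf4 (OX40) was the most abundant, with 716 and 779 CPM in Foxp3+ T cells, against 371 and 426 CPM in Foxp3-negative CD4 T cells. It was no longer counted among members with a Cd4 UMI. CD8 T cells had 55.7 and 44.8 CPM of it, so that Foxp3+ T cells ranked first and CD8 T cells last of the T cell classes in both hashed samples. Tnfrsf18 (GITR) had 419 and 687 CPM in Foxp3+ T cells, against 219.5 and 295 CPM in Foxp3-negative CD4 T cells. Cd27, the receptor of CD70, had 125 and 105 against 37.95 and 40.8 CPM, and Tnfrsf1b (TNF receptor 2, which supports regulatory T cell expansion) had 97.1 and 137.5 against 47.7 and 57.4 CPM. The single lower member was a ligand, Tnfsf8 (CD30 ligand), at 8.32 and 6.55 against 63.1 and 109 CPM. The ligand genes Ltb, Tnfsf10 and Tnfsf11 and the adaptor Traf1 were not counted.

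Costimulatory and checkpoint receptors divided. Of 13 measured, 3 were higher and 2 lower, against the same shares of all genes. Pdcd1 reached 50 CPM in Foxp3-negative CD4 T cells only, so the limit favoured its call. Besides Ctla4 the higher ones were Icos, a CD28 relative, at 222 and 196 CPM in Foxp3+ T cells, against 92.3 and 101 CPM in Foxp3-negative CD4 T cells, and Cd2, an adhesion receptor, at 574 and 556.5 against 291 and 263 CPM. Icos was no longer counted among members with a Cd4 UMI or with cells that had a Mki67 or Top2a UMI left out. The lower ones were Cd226, an activating receptor that competes with TIGIT for CD155, at 69.3 and 45.8 CPM in Foxp3+ T cells, against 167 and 165 CPM in Foxp3-negative CD4 T cells, and Pdcd1, which encodes PD-1, at 47.15 and 39.3 against 108 and 75.6 CPM. The Pdcd1 difference did not clear counting error in both hashed samples, and it was no longer counted among members with 2 or more Foxp3 UMIs or with cells that had a Mki67 or Top2a UMI left out. Cd28, Cd44, Cd5, Cd6, Cd69, Cd84, Slamf1 and Slamf6 were measured and not counted, and Tigit was under the limit with 11.1 and 0 CPM in Foxp3+ T cells.

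Besides Il2ra, the cytokine receptor genes Il7r, Il10ra and Ifngr1 were among the higher genes. Il10ra had 52.7 and 58.9 CPM in Foxp3+ T cells, on 19 and 9 UMIs, against 22.05 and 13.6 CPM in Foxp3-negative CD4 T cells. Of these 2 classes only the Foxp3+ T cells reached 50 CPM. Macrophage-gated cells had more Il10ra, at 88.5 and 80.7 CPM, and it was not counted against CD8 T cells. Il7r, the interleukin 7 receptor chain that regulatory T cells of lymphoid organs carry at low levels, had 713 and 917 CPM in Foxp3+ T cells, against 471 and 474.5 CPM in Foxp3-negative CD4 T cells. Il7r was no longer counted under TMM scaling, under median-of-ratios scaling, after removal of called doublets, among members with 2 or more Foxp3 UMIs, with cells that had a Mki67 or Top2a UMI left out, or with cells at or over 50 dendritic cell marker UMIs per 10000 left out. Il2rb, the beta chain of the interleukin 2 receptor, had 311 and 295 against 232 and 187 CPM and was not counted. Bcl2, the survival factor induced by interleukin 7, was counted as lower, with 36.1 and 65.5 CPM in Foxp3+ T cells, against 132 and 229.7 CPM in Foxp3-negative CD4 T cells, and CD8 T cells had 446.5 and 528 CPM. Il2 itself had 0 UMIs in the Foxp3+ T cells of both hashed samples, against 3.59 and 24.2 CPM in Foxp3-negative CD4 T cells, and was under the limit. Of 11 measured genes of interleukin 2 and STAT5 signalling, 2 were higher and 1 lower, against 3.46% and 1.97% of all genes, which rests on few members.

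Genes of tissue regulatory T cells gave a mixed picture. Of 12 measured, 4 were higher and 1 lower, against 3.46% and 1.97% of all genes, with a median of 0.60 and 0.30 log2. The 4 were Areg, Klrg1, Tnfrsf1b and Tnfrsf9, and the last 2 are also counted in the TNF receptor family. Areg, Klrg1 and Tnfrsf9 reached 50 CPM in Foxp3+ T cells only, so the limit admitted them through the class where they are high. With cells that had a Mki67 or Top2a UMI left out, 7 of 14 measured were higher, Gata3, Prdm1 and Dusp4 among them, and 2 lower. Areg, the growth factor amphiregulin, had 55.5 and 78.6 CPM in Foxp3+ T cells, against 0.513 and 12.1 CPM in Foxp3-negative CD4 T cells. Few cells carried it: the values rest on 20 UMIs in 5 of 63 members and 12 UMIs in 6 of 22, against 1 and 8 UMIs in the Foxp3-negative cells, and the ratios were 108-fold (17.3 to 4483) and 6.5-fold (2.44 to 18.3). It was no longer counted when members had to have a Cd4 UMI or at least 2 Foxp3 UMIs. Klrg1, an inhibitory receptor of terminally differentiated lymphocytes, had 61 and 124 CPM in Foxp3+ T cells, against 11.3 and 3.02 CPM in Foxp3-negative CD4 T cells, 5.41-fold (2.86 to 10.2) and 41.15-fold (9.93 to 364) higher, and was no longer counted among members with a Cd4 UMI.

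Il1rl1, which encodes ST2, the interleukin 33 receptor, was under the 50 CPM limit in hashed sample 1. It had 27.7 and 91.7 CPM in Foxp3+ T cells, against 12.3 and 4.53 CPM in Foxp3-negative CD4 T cells, and macrophage-gated cells had 7.51 and 15.4 CPM. A UMI of Il1rl1, Areg or Klrg1 was found in 18 of 63 members of hashed sample 1 (28.6%, interval 17.9 to 41.35) and 15 of 22 members of hashed sample 2 (68.2%, 45.1 to 86.1), against 7.55% and 6.03% of the Foxp3-negative CD4 T cells. The share in members was higher in hashed sample 2 than in hashed sample 1, with intervals that did not overlap, and the shares in Foxp3-negative cells were close to each other. These shares are unthinned. Members were deeper in hashed sample 2 (medians 4527 and 5199 UMIs) and Foxp3-negative cells in hashed sample 1 (5226.5 and 3754 UMIs). The part of depth in these shares was not tested. Gata3, which drives ST2 expression in tissue regulatory T cells, was not counted, at 105 and 105 against 79.5 and 99.75 CPM. Il10, the anti-inflammatory cytokine, was under the limit, at 8.32 and 13.1 CPM in Foxp3+ T cells and 4.1 and 0 CPM in Foxp3-negative CD4 T cells.

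Effector cytokines and their partners had the lowest median in both hashed samples among the lists with 6 or more measured members. Of 6 measured, 0 were counted as higher and 4 as lower, against 1.97% of all genes, with a list median of -1.18 and -1.35 log2. Of the lower ones, Xcl1 and Ifng reached 50 CPM in Foxp3-negative CD4 T cells but not in Foxp3+ T cells, so the limit admitted them through the former. Xcl1, the chemokine that attracts cross-presenting dendritic cells, had 0 UMIs in the Foxp3+ T cells of both hashed samples, against 275 and 160.2 CPM in Foxp3-negative CD4 T cells and 175.5 and 404 CPM in CD8 T cells. With 3 counts per hashed sample as the floor (8.32 and 19.6 CPM), it was at least 33.1-fold and 8.16-fold lower. Xcl1 lies on chromosome 1 at 164931644 to 164935527, minus strand.

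Ifng, the cytokine of type 1 immunity, had 41.6 and 13.1 CPM in Foxp3+ T cells, against 98.5 and 84.6 CPM in Foxp3-negative CD4 T cells, and was no longer counted with cells that had a Mki67 or Top2a UMI left out. Nkg7, a granule protein of cytotoxic cells, had 66.6 and 124 CPM in Foxp3+ T cells, against 337.5 and 325 CPM in Foxp3-negative CD4 T cells. Bhlhe40, a transcription factor needed for cytokine production by T helper cells, had 125 and 78.6 against 195 and 222 CPM, and was no longer counted with the same dendritic-marker cells left out. Ccl5, the chemokine of memory T cells, was not counted: it had 1148 and 982 CPM in Foxp3+ T cells, against 1613 and 1227 CPM in Foxp3-negative CD4 T cells, while CD8 T cells had 5231 and 5407 CPM. The death ligand Fasl was under the limit, at 2.77 and 6.55 against 33.85 and 49.9 CPM, and so was Tbx21, which encodes the type 1 regulator T-bet, at 25 and 26.2 against 48.7 and 34.8 CPM.

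Outside that list, the lowest ranked genes included a chemokine and several surface proteins. Ccl1, the ligand of CCR8, had 16.6 and 98.2 CPM in Foxp3+ T cells, against 417.5 and 512 CPM in Foxp3-negative CD4 T cells, and 14 of its 15 UMIs in the members of hashed sample 2 came from 1 cell. Ms4a4b, a membrane protein of effector T cells, had 49.9 and 124 CPM in Foxp3+ T cells, against 318 and 600.0 CPM in Foxp3-negative CD4 T cells, and CD8 T cells had 786 and 1197 CPM. Itgb1, the integrin beta 1 chain, had 83.2 and 39.3 against 208 and 335.5 CPM. All 3 were lower in Foxp3+ T cells than in Foxp3-negative CD4 T cells of the same hashed sample.

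Bcl2a1d, a survival gene with near-identical copies between which reads may be split, had 77.7 and 85.1 CPM in Foxp3+ T cells, against 298 and 305.3 CPM in Foxp3-negative CD4 T cells. Tbc1d4, a regulator of vesicle traffic, had 16.6 and 6.55 against 83.1 and 52.9 CPM, and Pde7a, a cyclic AMP phosphodiesterase, had 22.2 and 6.55 against 67.7 and 72.5 CPM. The values of Tbc1d4 and Pde7a in the members rest on few UMIs, since 6.55 CPM in hashed sample 2 is 1 UMI.

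Among lineage transcription factors, 18 were measured, 2 were higher and 4 lower, against 3.46% higher and 1.97% lower of all genes. Foxo1 reached 50 CPM in Foxp3+ T cells only and Tcf7 in Foxp3-negative CD4 T cells only, so the limit favoured their calls. Tcf7, which encodes TCF-1 of naive and stem-like T cells, was the lowest, with 11.1 and 6.55 CPM in Foxp3+ T cells, against 104 and 128.5 CPM in Foxp3-negative CD4 T cells, 9.34-fold (3.59 to 34.6) lower in hashed sample 1 and 19.6-fold (3.43 to 784) lower in hashed sample 2, where the member value is 1 UMI. Id2, a regulator of effector differentiation, had 275 and 281.5 against 501 and 571 CPM, and Runx3, a factor of cytotoxic and type 1 cells, had 52.7 and 52.4 against 99.5 and 133 CPM. Foxo1, which restrains effector programs and is needed by regulatory T cells, was higher at 66.6 and 65.5 against 33.85 and 36.3 CPM, a difference that did not clear counting error in both hashed samples. Foxo1 was no longer counted among members with a Cd4 UMI or with 2 or more Foxp3 UMIs, or with cells that had a Mki67 or Top2a UMI left out. Maf, a factor of interleukin 10 producing T cells, had 283 and 255 against 136 and 272 CPM and was not counted.

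Receptors for migration and retention were counted in both directions. Itgb7, the partner chain of Itgae, had 227.4 and 275 CPM in Foxp3+ T cells, against 65.65 and 84.6 CPM in Foxp3-negative CD4 T cells, so that both chains of the E-cadherin-binding integrin were counted as higher. Rgs2, a regulator of G protein signalling, had 261 and 262 against 74.4 and 68 CPM, with 234 and 210.0 CPM in macrophage-gated cells. Ccr2, the receptor for monocyte chemoattractants, had 139 and 275 against 82.6 and 154 CPM, with 567 and 783 CPM in macrophage-gated cells, and Ccr9, a gut-homing receptor, had 91.5 and 65.5 against 52.3 and 39.3 CPM. Neither Ccr2 nor Ccr9 was counted under TMM scaling, among members with a Cd4 UMI or with cells that had a Mki67 or Top2a UMI left out. Ccr9 was also lost after removal of called doublets, among members with 2 or more Foxp3 UMIs and where the interval had to be clear of 1.

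Cxcr6, a receptor of tissue-resident T cells, was lower, with 11.1 and 39.3 CPM in Foxp3+ T cells, against 132 and 205.5 CPM in Foxp3-negative CD4 T cells, and CD8 T cells had 209.6 and 411 CPM. Gpr183, an oxysterol receptor, was also lower, at 25 and 45.8 against 74.9 and 112 CPM. Cxcr6 and Gpr183 reached 50 CPM in Foxp3-negative CD4 T cells only, so the limit favoured their calls. Cxcr3, the receptor of interferon-induced chemokines, had 222 and 203 against 171 and 159 CPM and was not counted. The regulatory T cell receptors Ccr4, at 30.5 and 32.7 against 7.69 and 9.07 CPM, and Ccr8, at 16.6 and 13.1 against 7.18 and 1.51 CPM, were under the limit.

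Several lists held few counted genes. None of the 20 measured genes of the T cell receptor signalling list and none of 17 dissociation stress genes was counted in either direction, which with so few members is near the 3.46% higher and 1.97% lower of all genes. Of 19 S100 and cytoskeleton genes only Capg was higher, and of 12 glycolysis and lipid genes only Hif1a, the hypoxia factor, at 277 and 386 against 179.5 and 175 CPM. Of 8 TGF-beta response genes Itgae was higher and Tgfbr2, a TGF-beta receptor chain, was lower at 61 and 58.9 against 98 and 118 CPM. Of 8 interferon-stimulated genes 3 were higher: Gbp7 at 177.5 and 189.9 against 98 and 103 CPM, Ifi27l2a at 402 and 478 against 256 and 210.1 CPM and Ifi209 at 58.2 and 72 against 23.6 and 42.3 CPM. Hif1a, Ifi27l2a and Ifi209 were no longer counted under TMM scaling or with cells that had a Mki67 or Top2a UMI left out. Hif1a was also lost among members with a Cd4 UMI, and Ifi209 among members with 2 or more Foxp3 UMIs and where the interval had to be clear of 1. The call of Tgfbr2 was lost with cells that had a Mki67 or Top2a UMI left out, among members with a Cd4 UMI and among those with 2 or more Foxp3 UMIs. Ifi209, which reached 50 CPM in Foxp3+ T cells only, belongs to a family of similar genes between which reads may be split.

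Genes of dividing cells showed no common direction. Mki67, a protein of dividing cells, had 338 and 353.5 CPM in Foxp3+ T cells, against 371 and 313 CPM in Foxp3-negative CD4 T cells. A UMI of Mki67 or Top2a was found in 39.7% and 45.45% of Foxp3+ T cells, against 44.2% and 35.3% of Foxp3-negative CD4 T cells. Of 21 measured cell cycle genes only Pcna, the replication clamp, was counted, as lower, at 88.75 and 91.7 against 152 and 145 CPM. This count is near the 3.46% higher and 1.97% lower of all genes. The Pcna difference did not clear counting error in hashed sample 2, and the call was lost among members with a Cd4 UMI, among members with 2 or more Foxp3 UMIs and with cells that had a Mki67 or Top2a UMI left out. The list median had opposite signs in the hashed samples, -0.30 and 0.52 log2.

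Markers of other cell types were compared over whole lists. Macrophage markers summed to 2080 and 2913 CPM in Foxp3+ T cells and 2266 and 5744 CPM in Foxp3-negative CD4 T cells, against 73030 and 62950 CPM in macrophage-gated cells. None of 6 measured was counted, which with so few members is near the 5.43% of all genes counted either way. In hashed sample 2, 53.9% of the macrophage marker UMIs of the members came from 1 cell, and with the cell of most such UMIs left out of each class the sums were 1895 and 1447 CPM in Foxp3+ T cells, against 1993 and 4855 CPM in Foxp3-negative CD4 T cells. All 11 macrophage markers outside the rule had at least 1 UMI in the members, and the C1qa limit applied to the members and not to the Foxp3-negative cells. With the same limit on both classes, 103 genes counted as higher and 55 as lower. Dendritic cell markers, 0 of 4 counted, reached 353 per 10000 UMIs in 1 member of hashed sample 1 and 342 in 1 member of hashed sample 2, at medians of 12.6 and 12.98 per 10000. The 4 measured were Cd74, H2-Aa, H2-Ab1 and H2-Eb1, and with so few members 0 counted is again near the share of all genes. Macrophage-gated cells had medians of 374 and 262.7 per 10000 on this list, so it does not separate dendritic cells from macrophages. With cells at or over 50 such UMIs per 10000 left out (3 and 1 members, 14 and 5 Foxp3-negative cells), an alternative chosen after seeing the data, 104 genes counted as higher and 60 as lower.

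Of the B cell markers Ighm, the immunoglobulin heavy chain gene, was the 1 measured, and it was counted as higher. It had 263.5 and 170.2 CPM in Foxp3+ T cells, against 39.5 and 68 CPM in Foxp3-negative CD4 T cells, and a UMI of it was found in 34 of 63 and 12 of 22 Foxp3+ T cells. Macrophage-gated cells had an Ighm UMI in 33.2% and 41.7% of cells. The B cell list summed to 319 and 196 CPM in Foxp3+ T cells, against 47.2 and 77.1 CPM in Foxp3-negative CD4 T cells. Cd79b and Igkc, under the limit, had 10 and 2 UMIs each in the members, 27.7 and 13.1 against 3.59 and 4.53 CPM of Cd79b and 27.7 and 13.1 against 3.59 and 4.53 CPM of Igkc. Cd79a, Ms4a1, Ebf1 and Pax5 were at 0 UMIs in the members. Among NK and innate lymphoid markers 7 of 13 were at 0, including Ncr1, Prf1, Kit and Trdc, and of the CD8 markers outside the rule Nkg7 was lower. Kidney tubule markers summed to 685 and 255 CPM in Foxp3+ T cells, against 416 and 1442 CPM in Foxp3-negative CD4 T cells. In hashed sample 1, 57.9% of these UMIs of the members came from 1 cell. With the cell of most such UMIs left out of each class, an alternative chosen after seeing the data, the sums were 295.5 and 216 CPM in Foxp3+ T cells, against 321 and 1006 CPM in Foxp3-negative CD4 T cells, lower in Foxp3+ T cells of both hashed samples. The part of these other cell types in the results was not tested.

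Against 485 CD8 T cells (304 and 181, with a Cd3 and a Cd8 UMI and no Foxp3 or Cd4 UMI), 2855 genes were measured, of which 193 (6.76%) were higher in Foxp3+ T cells and 112 (3.92%) lower. This comparison uses the same members as the one with Foxp3-negative CD4 T cells, so values stand side by side and are no second line of evidence. Ctla4 had 566 and 648 CPM in Foxp3+ T cells, against 50.8 and 42.2 CPM in CD8 T cells. Tnfrsf18 had 419 and 687 against 85 and 111 CPM, and Icos 222 and 196 against 67.6 and 72.9 CPM. Itgae had 130.4 and 91.7 CPM in Foxp3+ T cells, against 50.8 and 39.65 CPM in CD8 T cells, which thus lay between the members and the Foxp3-negative CD4 T cells in both hashed samples. Median depth was 3478 and 3587 UMIs per CD8 T cell.

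The differences were also seen per cell at matched depth. With the counts of every cell randomly reduced to 1000 UMIs (thinned), Ikzf2 was found in 46.8% (34 to 59.9) of Foxp3+ T cells of hashed sample 1 and 31.8% (13.9 to 54.9) of hashed sample 2, against 3.62% and 5.17% of Foxp3-negative CD4 T cells. Unthinned shares of Ikzf2 were 84.1% and 68.2% in Foxp3+ T cells, against 17.6% and 19.8% in Foxp3-negative CD4 T cells. Macrophage-gated cells had Ikzf2 in 0.9245% and 0.911% of thinned cells, so the shares in both T cell classes were above that background. Ikzf2 thus remained the more frequent transcript in Foxp3+ T cells of both hashed samples when depth was equal.

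Ctla4 was found in 51.6% (38.6 to 64.5) and 36.4% (17.2 to 59.3) of thinned Foxp3+ T cells, against 9.78% and 3.45% of Foxp3-negative CD4 T cells, and unthinned in 84.1% and 72.7%, against 37.05% and 19%. Il2ra was found in 14.5% (6.86 to 25.8) and 18.2% (5.19 to 40.3) of thinned Foxp3+ T cells, against 2.17% and 0.862%, and unthinned in 33.3% and 54.55%, against 7.91% and 3.45%. In each of these genes the thinned share was lower than the unthinned share in both classes, and the order of the classes was the same.

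Genes counted as lower showed the opposite order. Xcl1 was found in 0 of 63 and 0 of 22 unthinned Foxp3+ T cells, against 25.2% and 20.7% of Foxp3-negative CD4 T cells. Cxcr6 was found in 4.76% (0.993 to 13.3) and 18.2% (5.19 to 40.3) of unthinned Foxp3+ T cells, against 45% and 46.55% of Foxp3-negative CD4 T cells. Tcf7 was found in 4.76% (0.993 to 13.3) and 4.545% (0.115 to 22.8) of Foxp3+ T cells, against 32.7% and 42.2%. Ikzf2 was in most members, while Xcl1, Cxcr6 and Tcf7 were in few or none.

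**Figure D4:**
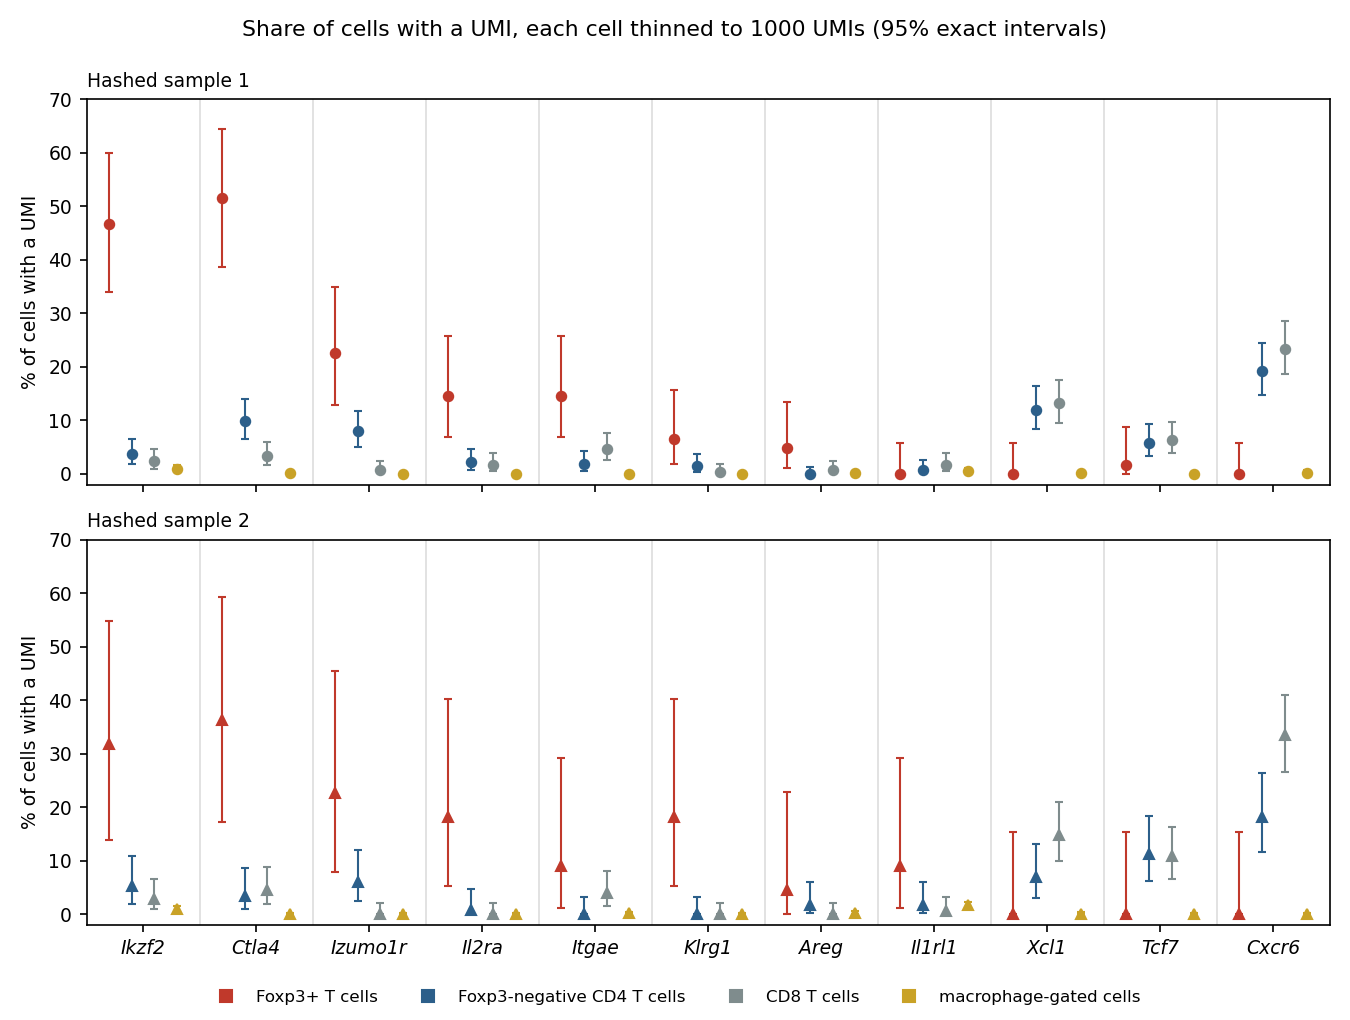
Percent of cells with at least 1 UMI of 11 genes after thinning to 1000 UMIs per cell, by class and hashed sample. Ikzf2 reaches 46.8% and 31.8% of Foxp3+ T cells, against 3.62% and 5.17% of Foxp3-negative CD4 T cells, and Xcl1 and Cxcr6 are at 0 in the Foxp3+ T cells of both hashed samples.

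Foxp3+ T cells were not uniform. Pooled over the hashed samples, 68 members had an Ikzf2 UMI (median 5173 UMIs per cell) and 17 had none (median 3800.0 UMIs), so that this split also follows depth. It follows hashed sample too, with 53 and 15 cells with Ikzf2 and 10 and 7 without. Il7r itself was 713 and 917 CPM in all members of hashed samples 1 and 2. Members with Ikzf2 had less Il7r, at 676 against 1338 CPM in members without, a ratio of 0.5055 (0.402 to 0.64), and less Id2, at 244 against 463.5 CPM. Icos stood at 194 against 331 CPM and S100a4, a calcium-binding protein of effector cells, at 630.5 against 1073 CPM, both lower in the Ikzf2 members. Ighm was higher in them, at 267 against 53 CPM, with 4 UMIs behind the second value. Ctla4 had 617 against 437 CPM with a ratio of 1.41 (0.981 to 2.09), an interval that includes 1.

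Members with 2 or more Foxp3 UMIs (48 cells, median 5130.5 UMIs) were set against members with 1 (37 cells, median 4510.0 UMIs), a split that also follows depth. The members with more Foxp3 had more Ctla4, at 665 against 465 CPM, a ratio of 1.43 (1.11 to 1.85), and more Tnfrsf18, at 569 against 381 CPM, and Tnfrsf9, at 124 against 57.45 CPM. They had less Ifng, at 6.21 against 78.35 CPM, less Cd226, at 24.9 against 125 CPM, and less Itgae, at 80.8 against 183 CPM. For Ifng, 1 cell, with 1 Foxp3 UMI, held 53.3% of the UMIs of members in hashed sample 1. Ikzf2, at 609 against 533 CPM, had an interval that includes 1. The invariant chain gene Cd74 had 2063 against 585 CPM, but 1 cell held 59.4% of the Cd74 UMIs of members in hashed sample 1 and 1 cell 67.1% in hashed sample 2.

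Members with a Mki67 or Top2a UMI (35 cells, median 6306.0 UMIs) were set against the other 50 (median 3816.0 UMIs). The members with such a UMI, which were deeper, had less Areg, at 27.1 against 109.9 CPM, and less Tnfrsf4, at 610.5 against 902 CPM. Il7r was lower too, at 631 against 966 CPM, and Il2ra stood at 88.2 against 156 CPM. Fabp5, a fatty acid carrier, was higher, at 220.5 against 54.9 CPM. Foxp3 itself is not compared in these splits, since every member had to have a UMI of it and its level per cell then follows depth. These 3 splits were chosen with values of these data known, and they carry no test.

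**Figure D5:**
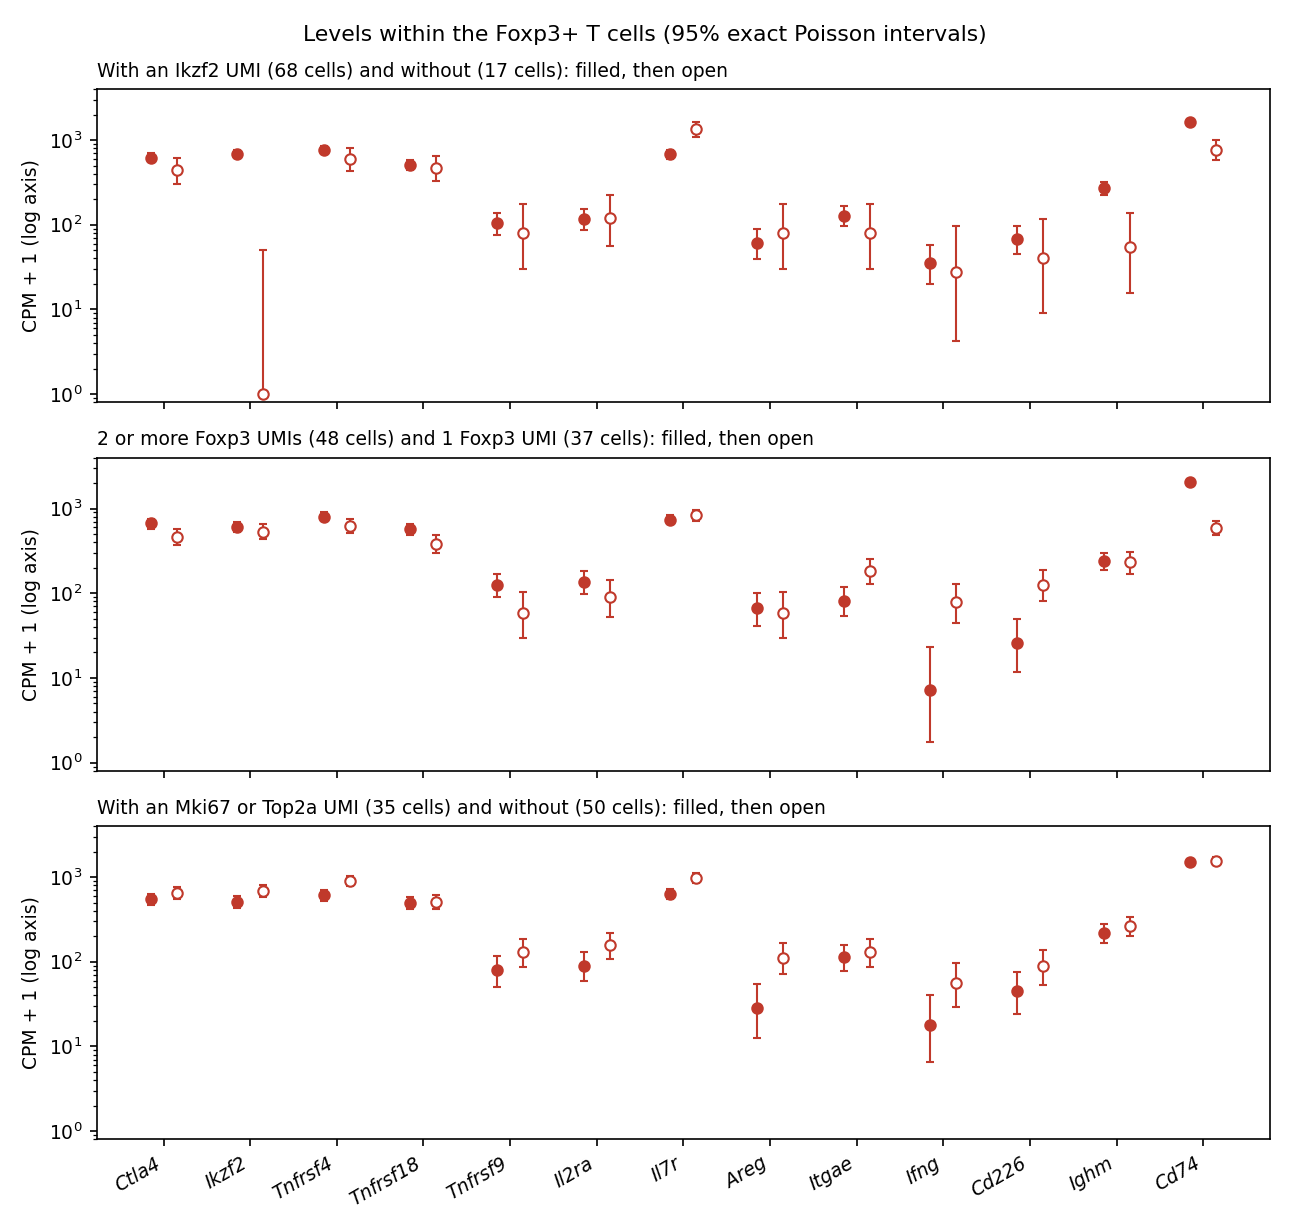
CPM plus 1 (log axis, pooled over the hashed samples, with exact 95% Poisson intervals) of 13 genes in Foxp3+ T cells split by an Ikzf2 UMI (68 and 17 cells), by 2 or more Foxp3 UMIs or 1 (48 and 37 cells) and by a Mki67 or Top2a UMI (35 and 50 cells). Ifng and Cd226 stand lower in cells with 2 or more Foxp3 UMIs, though 1 cell held 53.3% of the Ifng UMIs of members in hashed sample 1. Il7r stands lower in cells with an Ikzf2 UMI, a split that also follows depth and hashed sample.

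Of the 394 Foxp3-negative CD4 T cells, 72 had an Ikzf2 UMI, and these had 173.5 CPM of Ctla4, 22.3 CPM of Il2ra and 431 CPM of Tnfrsf4, against 77.15, 18.15 and 371 CPM in the 322 without. The Ikzf2-bearing Foxp3-negative cells were below Foxp3+ T cells of either hashed sample in Ctla4 and Il2ra. Whether they include cells that made Foxp3 RNA without a captured UMI was not tested.

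Between the hashed samples, 3101 genes could be compared within Foxp3+ T cells, and 229 differed by 1.5-fold with a counting interval clear of 1, 146 of them higher in hashed sample 2 and 83 lower. With 22 members in hashed sample 2 a single cell can set such a value. Il1rl1, Il2ra, Klrg1, Ccr2 and Tnfrsf18, given above, were higher in hashed sample 2. Cenpf, a kinetochore gene, had 360.1 CPM in hashed sample 2 and 119.3 CPM in hashed sample 1, but 52.7% of the UMIs in hashed sample 2 came from 1 cell. Plac8, a monocyte and T cell gene, had 0 CPM in hashed sample 2 and 97.1 CPM in hashed sample 1. Fxyd2, a sodium pump subunit of kidney tubule, had 32.7 CPM in hashed sample 2 and 147.0 CPM in hashed sample 1, where 67.9% of its UMIs came from 1 cell.

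A few further genes, chosen after their values were seen, were counted as higher. Ifngr1, a chain of the interferon gamma receptor, had 854 and 903.5 CPM in Foxp3+ T cells, against 484 and 428 CPM in Foxp3-negative CD4 T cells, and Pglyrp1, a peptidoglycan recognition protein, had 236 and 301.2 against 82.6 and 87.7 CPM. Rapsn, known from the neuromuscular junction, had 72.1 and 98.2 against 27.2 and 21.2 CPM. The muscle gene Ttn had 55.5 and 91.7 against 18.5 and 24.2 CPM, on 20 and 14 UMIs in 15 and 5 members. Themis, a T cell receptor signalling adaptor of thymocytes, was counted as lower at 41.6 and 78.6 against 118 and 130.0 CPM.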

How the data were processed

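CD45-sorted kidney cells from 1 capture library, hashed into 2 samples, were analysed. The deposited values are raw UMI counts per gene and cell, not normalized, and the file headers name Cell Ranger 6.1.1 as their source. Build mm10, Seurat 4.3.0 and Cell Ranger 6.0 come from the submitters' processing notes. Barcodes with at least 500 UMIs, at least 200 genes and at most 10% mitochondrial UMIs were kept, and 414 were removed. Doublets were not removed. Scrublet, run as an alternative, called 40 of the cells kept, 0 of them members, and 6 cells had an unclear hashtag. For each class and hashed sample UMIs were summed and scaled to CPM. Ratios used a pseudocount of 10 CPM, and genes at 50 CPM or more in at least 1 class in each hashed sample were measured. Genes past 1.5-fold with the same sign in hashed samples 1 and 2 were called. Cells are not replicates, and the text therefore has no test. Ratio intervals are exact conditional, those of shares Clopper-Pearson, both 95%, and a count of 0 was set at a floor of 3 counts. Intervals cover counting error only. Cells were thinned to 1000 UMIs for the detection shares, leaving out 1 member and 2 Foxp3-negative cells. Named genes are the 15 highest and 10 lowest counted genes by mean log2 ratio, leaving out the genes of the rule, mitochondrial, ribosomal, immunoglobulin, T cell receptor and sex-linked genes and unnamed gene models, and the members of 24 gene lists. The members and lists were chosen with earlier results of these data known. Alternatives were other scalings (TMM with edgeR 4.0.16 and median of ratios), limits, pseudocounts, folds and member rules. Versions were Python 3.11.15, numpy 2.4.6, scipy 1.17.1, pandas 2.3.3, scanpy 1.11.5, anndata 0.12.19 and R 4.3.3. The Visium section was not analysed here.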

Additional observations from a re-analysis of the deposited data

How the results depend on the processing

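No gene counted as higher or lower was counted the opposite way under any alternative run, although several alternatives, given below, could not have reversed a call. The counts of genes higher and lower in Foxp3+ T cells moved with the limits: 178 and 143 when genes of 20 CPM were measured, 52 and 22 at 100 CPM, 225 and 298 with no filter, 53 and 23 with a pseudocount of 50 CPM, and 35 and 20 at 2-fold. Asking for a counting interval clear of 1 in both hashed samples left 76 and 32. Hashed sample 1 alone gave 274 and 187, and hashed sample 2 alone 558 and 507. Cells of 2000 to 8000 UMIs gave 136 and 105, and leaving out cells with a Mki67 or Top2a UMI gave 140 and 98. TMM scaling turned the split to 46.7% higher of the genes counted, against 63.7% in the scaling reported, members with a Cd4 UMI to 53.3%, and no filter to 43.0%. Members with 2 or more Foxp3 UMIs were 1.12% and 0.373% of cells kept and 11.2% and 10.1% of CD4-lineage T cells in hashed samples 1 and 2, and thinning to 1000 UMIs before the gate left 0.432% and 0.149% of cells kept. Of 524 pairs of a named gene and an alternative, 506 kept direction and count, 18 kept direction without being counted and 0 reversed. Most of the 18 came from the 100 CPM limit. For genes already counted, some alternatives could only return the same call. These were the 20 CPM limit, no filter, a pseudocount of 1 CPM and each hashed sample alone. The 100 CPM limit, a pseudocount of 50 CPM, the 2-fold rule and the interval rule could not reverse a call. Nor could leaving out genes as high in macrophage-gated cells. The totals over all pairs include these fixed outcomes. Depth limits these results: with 152743 UMIs in the Foxp3+ T cells of hashed sample 2, 1 UMI is 6.55 CPM. No paired analysis was possible because the results come from no test. The call itself sets the classes against each other within each hashed sample.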
